A study of Mus musculus with 6 samples.

Results

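The enzymes that make and use glutathione, and the antioxidant enzymes that work beside them, were compared between wild-type granulosa cells and tumors of granulosa cells that arose in Smad1/5/8 mutant mice. A gene belonged to the set when it was named by a probe set with a single platform symbol of the families of glutathione transferases (Gsta, Gstm, Gstp, Gstt, Gsto, Gstz, Gstk1 and Mgst), glutathione peroxidases (Gpx), peroxiredoxins (Prdx), thioredoxin reductases (Txnrd) and superoxide dismutases (Sod), or was Cat, Gclc, Gclm, Gss, Gsr, Hmox1, Nqo1 or Srxn1. Where several such probe sets named a gene, the brightest on average stood for it. The rule gave 48 genes of the 18193 named on the array, and 39 of them were among the 11611 genes bright enough to test. The rule uses symbols and the mean signal over all arrays, not the difference between the groups. Total RNA of 6 samples was hybridised to 1 Affymetrix array each, 3 from tumors and 3 from wild-type cells, and the values are linear array signals in arbitrary units. The wild-type samples were granulosa cells isolated from C57BL/6J;129S5/SvEvBrd females aged 21 days, which had been primed with PMSG, a gonadotropin that stimulates follicle growth, 44 to 46 hours earlier, and each sample pooled 2 to 3 females. The mutation of the tumor mice concerns Smad1, Smad5 and Smad8, the last now named Smad9. Tumors were untreated, and are called independent by the design text. The tumor mice have no strain, age or sex in the labels, and the alleles and the cell type or driver of the mutation are not stated there.

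Glutathione is a small thiol peptide that cells hold at high concentration. Glutamate-cysteine ligase and glutathione synthetase make it, peroxidases spend it on peroxides, transferases attach it to lipid breakdown products, steroids and foreign compounds, and glutathione reductase restores it with NADPH. Peroxiredoxins and thioredoxin reductases form a parallel thiol system, superoxide dismutases and catalase act without thiols, and many of these genes are known targets of the transcription factor Nrf2 (Nfe2l2). Granulosa cells surround the oocyte and make estradiol, and steroid-producing cells are known for alpha-class glutathione transferases.

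Across the whole array, the probe sets at or above a signal of 100 numbered 22565 to 25013, and every array had a trimmed mean of 500. Smad1 read 830, 856 and 926 in wild type and 2076, 2861 and 2354 in tumors, and Smad5 had 1246, 1078 and 1273 against 2435, 2815 and 3108, so both were higher on the arrays labelled as mutant, while Smad9 lay below 100 on all 6 arrays. Which exons are deleted, and whether these probe sets lie in them, is not stated in the labels, so these signals do not check the genotype labels. The samples carried granulosa markers in both groups, with summed signals of 189555 to 216414 in wild type and 101405 to 110867 in tumors over 10 genes, and Foxl2, the transcription factor that maintains granulosa identity, at 11642, 9843 and 10542 against 8633, 7565 and 6439. Of the 10 granulosa markers, 1 was called higher (Amh, log2 difference 2.0) and 4 lower (Fshr, Inhba, Inhbb and Hsd17b1, at -3.23, -5.42, -3.95 and -1.19). These and the marker counts below stand beside 14.5% higher and 12.6% lower over all tested genes. Several kinds of other cells had markers that were higher in the tumors: 15 of 15 tested macrophage genes (summed signals of 2921 to 3845 against 17485 to 20770, with Cd163 and Aif1 below 100 in every wild-type sample), 9 of 9 smooth muscle genes, 10 of 11 fibroblast genes and 6 of 12 endothelial genes. Des of the smooth muscle list and Flt1 of the endothelial list were below 100 in every wild-type sample and passed the filter through the tumors alone. Others did not: 5 of 6 tested oocyte genes were lower (summed signals of 1053 to 1725 against 455 to 720). Of those, Zp1, Zp2, Zp3 and Dazl were below 100 in every tumor and passed the filter through wild type alone. Of 6 theca genes 2 were higher (Gli1 and Ptch1) and 2 lower (Cyp17a1 and Cyp11a1, at -4.85 and -4.45), with sums of 57664 to 70133 against 31734 to 73424. Gli1 was below 100 in every wild-type sample and passed through the tumors alone. Of 2 tested genes each, the erythroid list had 0 called and the neutrophil list 1, Ltf, which was higher. Ltf was below 100 in every wild-type sample and passed the filter through the tumors alone. Summed signals were 712 to 982 against 422 to 1225 for the erythroid list. For the neutrophil list they were 352 to 456 against 511 to 2441, and the tumor sums rested largely on single genes. Ltf read 233, 996 and 127 in tumors 1, 2 and 3. S100a8, which was tested and not called, read 118, 50.2 and 60.5 in wild type and 94.3, 105 and 1124 in tumors. In bulk samples, fewer cells of a type and less RNA per cell cannot be told apart. As a measure of RNA integrity, the 3′ over 5′ signal of Actb was 0.447 ± 0.193 on the log2 scale in wild type and 0.808 ± 0.209 in tumors, and that of Gapdh was -0.391 ± 0.0653 and -0.365 ± 0.113 (SD, n = 3 each). The part of these differences in the results for the enzymes was not tested. Genotype, hormone priming, isolated cells or whole tissue, storage of the tissue and the software that computed the signals all differ between the groups in the same way, so they cannot be told apart.

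Of the 39 tested genes, 9 were higher in tumors and 8 were lower at an adjusted p under 0.05 (limma, Benjamini-Hochberg adjusted over all 11611 genes), and 22 did not pass. That is 23.1% higher and 20.5% lower, beside 14.5% and 12.6% of all tested genes. A change of at least 2-fold with the call was found for 4 higher and 6 lower members, beside 8.34% and 5.28% of all tested genes. The median difference of the members was -0.03 on the log2 scale (-0.00492 over all tested genes), and the median size regardless of sign was 0.51 (0.38 over all). The changes of at least 2-fold lay in the glutathione transferases, apart from Gpx7: among the 17 transferases tested, 5 were higher, 5 were lower and the median size was 1.09, and among the 22 other members 4 were higher, 3 were lower and the median size was 0.44. All differences are log2(signal + 32) in tumors minus that in wild type, a scale on which the change of dim genes is understated. When the arrays were scaled to the added bacterial control transcripts instead of the trimmed mean, the median over all genes moved to -1.0 and the split became 0 higher and 26 lower, so each direction below is relative to the bulk of the genes on the array. Counts also moved with single samples: 4 members were higher without wild-type sample 1 or without wild-type sample 3, and 5 were lower without any 1 wild-type sample.

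**Figure D1:**
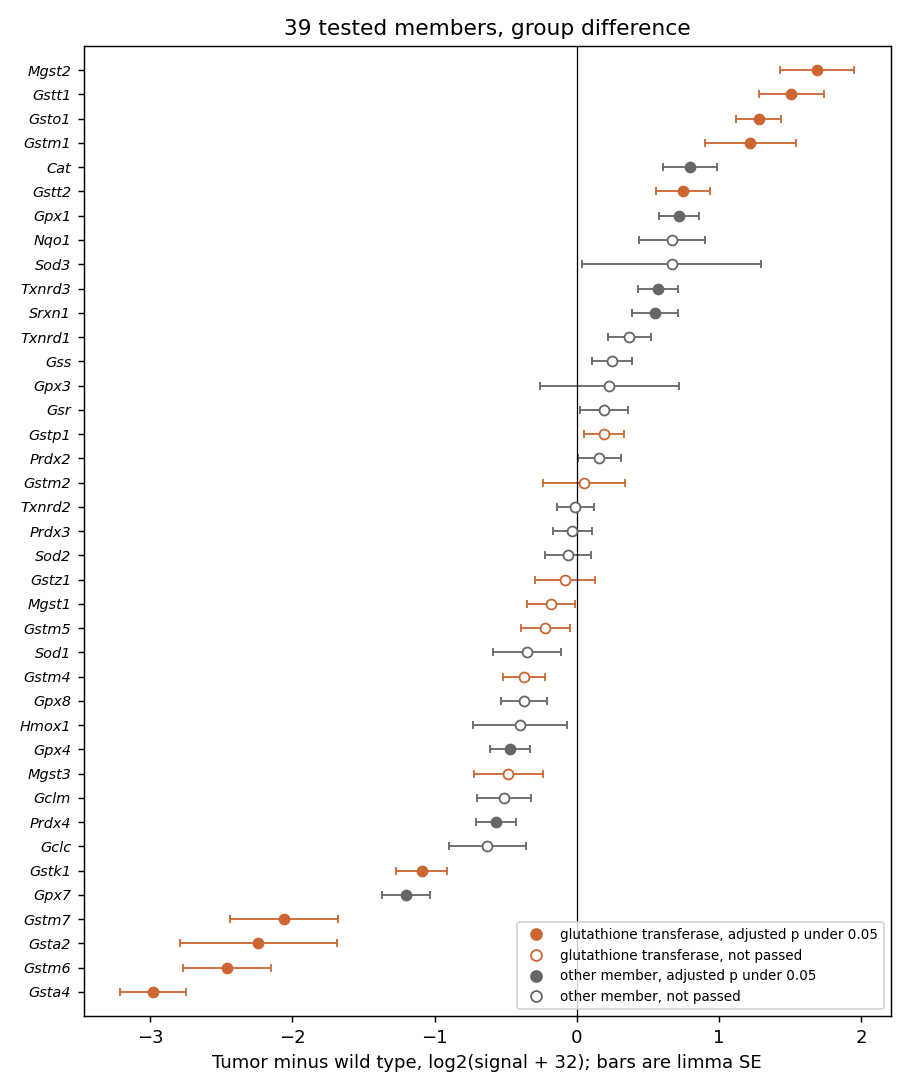
Difference between tumors and wild type for the 39 tested genes (x axis, log2(signal + 32), tumor minus wild type; bars are limma's standard error from 3 arrays a group), ordered by size, with filled points for an adjusted p under 0.05 and orange for glutathione transferases. The scale runs from Gsta4 at -2.98 to Mgst2 at 1.69 with the trimmed-mean scaling, and under scaling to the bacterial control transcripts none of the members passed as higher.

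The alpha-class transferases, which conjugate lipid aldehydes and reduce lipid peroxides, showed the largest fall of the set. Gsta4, whose enzyme detoxifies the lipid aldehyde 4-hydroxynonenal, had signals of 10353, 9096 and 9781 in wild type and 1202, 878 and 1638 in the tumors. Every tumor lay far below every wild-type sample, with means 7.86-fold apart and a log2 difference of -2.98 (SE 0.23, adjusted p = 0.000479). Gsta2, a transferase and peroxidase of liver and steroid-producing cells, gave 464, 551 and 428 against 110, 9.31 and 181. The groups did not overlap, tumor 2 was below the signal minimum of 100, and the log2 difference was -2.24 (SE 0.55, adjusted p = 0.024). Leaving out any 1 wild-type sample ended that call, at an adjusted p of 0.0731, 0.0738 and 0.061 without samples 1, 2 and 3. A probe set shared by Gsta1, Gsta2 and Gm3776, which therefore names no single gene, read 342, 330 and 247 against 104, 94.7 and 141 (log2 difference -1.22, adjusted p = 0.00666 over all probe sets). Members of this family are near-identical in sequence, so how signal divides between Gsta1 and Gsta2 is uncertain. Gsta3, which isomerises steroid intermediates in addition to conjugating, was not tested because only 2 arrays reached 100: it read 76.5, 43.3 and 52.2 in wild type and 227, 94.6 and 282 in tumors. Its wild-type signals were all below the minimum and its tumor mean was at least 1.82-fold higher, but with no filter it did not pass (adjusted p = 0.0619).

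The mu-class transferases conjugate aromatic epoxides and quinones, and their genes lie in a row on chromosome 3. Of the 6 tested, 2 were lower, 1 was higher and 3 did not pass. Gstm6 read 530, 631 and 639 in wild type and 140, 38.3 and 93.3 in tumors. The groups did not overlap, and 2 of the 3 tumors were below 100 (log2 difference -2.46, SE 0.31, adjusted p = 0.00261). Gstm7 read 1193, 1043 and 1284 against 323, 120 and 409. It too was lower in every tumor than in any wild-type sample, and lowest in tumor 2 (log2 difference -2.06, SE 0.38, adjusted p = 0.00892). A dimmer probe set for Gstm7 read 151, 150 and 143 against 127, 118 and 89.6 and did not pass (-0.34, adjusted p = 0.182 over all probe sets), and the mean of both gave -1.20. Gstm1, the main mu-class enzyme of liver, went the other way, with 3118, 4083 and 2992 against 11157, 4808 and 9041. Tumors 1 and 3 were well above wild type, whereas tumor 2 was close to the highest wild-type sample, and the log2 difference was 1.22 (SE 0.32, adjusted p = 0.0291), or 0.15 under scaling to the bacterial controls. Without tumor 2 the call for Gstm1 remained, and it was lost without any other single sample: the adjusted p was 0.0953, 0.0508 and 0.0889 without wild-type samples 1, 2 and 3, and 0.0691 and 0.0688 without tumors 1 and 3. Gstm2, Gstm4 and Gstm5 did not pass, at log2 differences of 0.05, -0.37 and -0.22 (adjusted p = 0.916, 0.107 and 0.364), and Gstm3 was too dim to test. In the RefSeq gene order of GRCm38.p6 the 7 genes are consecutive coding genes, Gstm5, Gstm7, Gstm6, Gstm3, Gstm2, Gstm1 and Gstm4, so the lower pair lie side by side and the gene that was higher lies 3 places from Gstm6. Mu-class probe sets can detect their near-identical neighbours, which was not tested here.

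The 250 bases before the start of transcription of Gstm7, which was lower, and of Gstm1, which was higher, are shown because the genes share a cluster and differ in direction. Both windows are from RefSeq on GRCm38.p6, on the minus strand, Gstm7 at chr3:107931818-107932067 and Gstm1 at chr3:108017974-108018223, read 5′ to 3′ toward the start, and neither holds the motifs searched further on.
Gstm7: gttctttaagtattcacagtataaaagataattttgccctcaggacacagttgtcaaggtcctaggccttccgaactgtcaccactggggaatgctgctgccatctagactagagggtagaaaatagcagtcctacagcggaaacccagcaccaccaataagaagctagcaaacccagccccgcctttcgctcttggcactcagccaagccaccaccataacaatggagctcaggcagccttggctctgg
Gstm1: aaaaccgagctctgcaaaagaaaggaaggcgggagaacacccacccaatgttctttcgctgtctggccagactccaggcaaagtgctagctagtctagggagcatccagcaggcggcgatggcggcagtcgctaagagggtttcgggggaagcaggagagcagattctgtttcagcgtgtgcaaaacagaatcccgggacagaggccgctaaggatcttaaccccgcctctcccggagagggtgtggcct

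Both tested theta-class genes were higher under the trimmed-mean scaling, although under scaling to the bacterial controls Gstt1 had a difference of 0.49 that did not pass and Gstt2 turned to -0.27. Theta-class enzymes act on halogenated compounds and organic peroxides. Gstt1 read 417, 450 and 468 in wild type and 1814, 982 and 1309 in tumors. The lowest tumor was above every wild-type sample by far more than their spread, and the log2 difference was 1.51 (SE 0.23, adjusted p = 0.00445). Gstt2 read 515, 580 and 369 against 897, 847 and 748. Its groups were also apart (log2 difference 0.75, SE 0.19, adjusted p = 0.0284), but the adjusted p was 0.0775 and 0.0769 without wild-type samples 1 and 3, and 0.0741 and 0.0736 without tumors 1 and 2. Gstt3 stayed under 100 in wild type (44.1, 58.1 and 12.5) and in tumor 2 (34.2), and reached 264 and 231 in tumors 1 and 3, so its groups overlapped and it was not tested. In RefSeq order on chromosome 10 the genes stand as Gstt3, Gstt1, Gstt4 and Gstt2, and Gstt4 was under 100 on every array.

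Gsto1, an omega-class enzyme that reduces dehydroascorbate and arsenic compounds, read 944, 987 and 1223 in wild type and 2778, 2298 and 2713 in tumors. The tumors were close to each other and all above wild type (log2 difference 1.28, SE 0.16, adjusted p = 0.00256). Mgst2, a membrane enzyme that can make leukotriene C4 and reduces lipid peroxides, had the largest rise of the set. It read 478, 342 and 571 against 1109, 1714 and 1912, and every tumor was above every wild-type sample (log2 difference 1.69, SE 0.26, adjusted p = 0.00507). Under scaling to the bacterial controls these differences were 0.23 for Gsto1 and 0.66 for Mgst2, neither past the threshold. Mgst1 and Mgst3, the other microsomal members, did not pass, at -0.18 and -0.48 (adjusted p = 0.466 and 0.184). Gstk1, the kappa-class transferase of mitochondria and peroxisomes, read 938, 909 and 962 against 532, 342 and 414. Wild-type samples differed little from each other and every tumor was lower (log2 difference -1.09, SE 0.18, adjusted p = 0.00629). Gstp1, the pi-class enzyme often abundant in tumors, and Gstz1, which degrades tyrosine metabolites, did not pass, at 0.19 and -0.08 (adjusted p = 0.349 and 0.802). Gsto2 and Gstp3 were below 100 on every array.

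**Figure D2:**
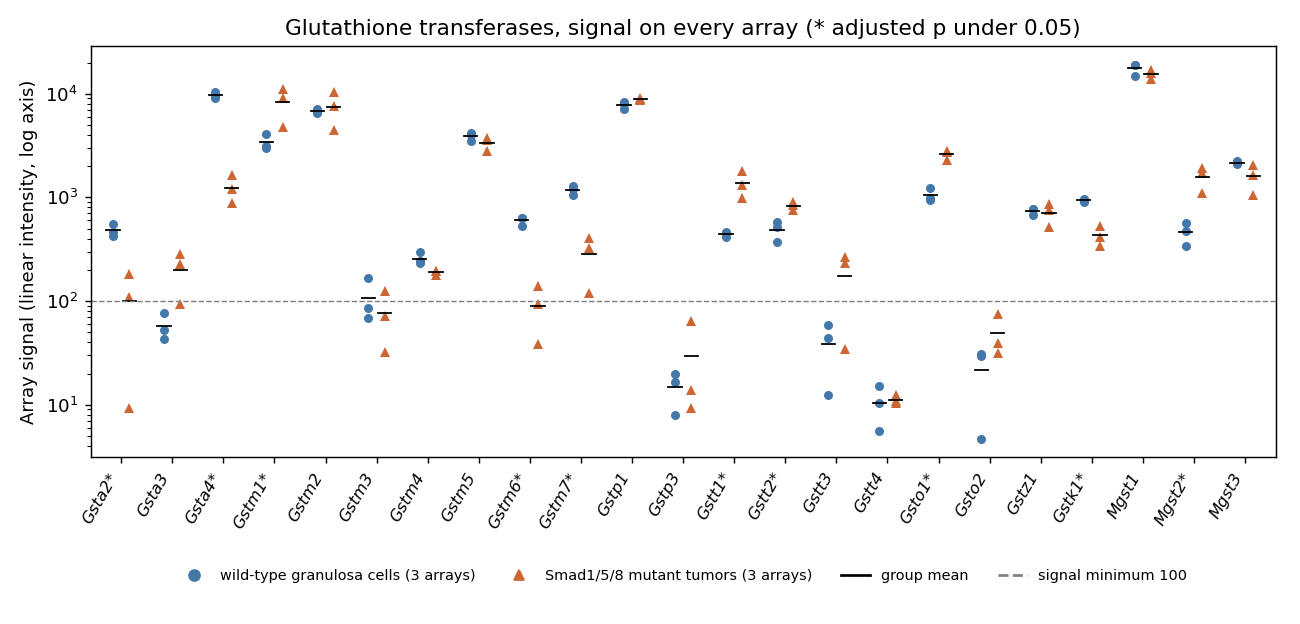
Signal of the 23 glutathione transferases on every array (y axis, linear intensity on a log axis; circles are wild type, triangles tumors, bars the mean of 3 arrays, and the dashed line the signal minimum of 100). Gsta4, Gstm6, Gstm7 and Gstk1 have all 3 tumors below wild type and Gstt1, Gsto1 and Mgst2 all 3 above, although under scaling to the bacterial controls these last 3, at 0.49, 0.23 and 0.66, did not pass.

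The SD of log2(signal + 32) was greater between tumors than between wild-type samples in 12 of the 17 tested transferases (70.6%). That share was 61.5% over all tested genes and 40.9% over the 22 other members. The median SD of the transferases was 0.14 in wild type and 0.41 in tumors. It was 0.19 and 0.24 over all tested genes, and 0.15 and 0.16 over the other members. Gsta2 and Gstm6, with SDs of 1.23 and 0.65 in tumors, had tumor signals below 100. The comparison of spread is a description, with no test, and the pattern was singled out after its values were seen. Tumor 2 was the lowest of the 3 tumors in 11 of the 17 transferases (64.7%), in 27.3% of the other members and in 27.4% of all tested genes. It was lowest for genes that fell, such as Gsta2, Gstm6 and Gstm7, and for genes that rose, such as Gstm1 and Gstt1. Adipocyte markers separated the same tumor from the others: their summed signal over 4 genes was 21824 in tumor 1, 811 in tumor 2 and 27689 in tumor 3, and 136 to 227 in wild type. Adipoq, the fat hormone adiponectin, read 8446, 52.6 and 8410 in tumors 1, 2 and 3, and Cidec, a lipid droplet protein, read 984, 2.61 and 851, whereas both were below 100 in all wild-type samples. Of the 4 markers, 1 was bright enough to test, Fabp4, and it was higher (log2 difference 5.34, SE 1.09, adjusted p = 0.0129). Tumor 2 alone was therefore set against the 3 wild-type samples, a comparison added after the data were seen in which its own spread is taken to be that of the wild-type samples. In that fit 10.1% of all tested genes were higher and 7.79% lower. Of the members, 3 were higher (Gstt1 at 1.09, Gsto1 at 1.11 and Mgst2 at 1.84, adjusted p = 0.0196, 0.029 and 0.0168) and 6 were lower (Gsta4, Gsta2, Gstm6, Gstm7, Gstk1 and Gpx7, at -3.42, -3.63, -3.16, -2.98, -1.37 and -1.36, adjusted p between 0.00178 and 0.0168). Gstm1 had a difference of 0.51 that did not pass (adjusted p = 0.216). In tumor 2, Adipoq and Cidec lay below 100 but Fabp4 read 746, above the 85.8 to 156 of wild type. The part of fat cells in the transferase results was not tested.

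**Figure D3:**
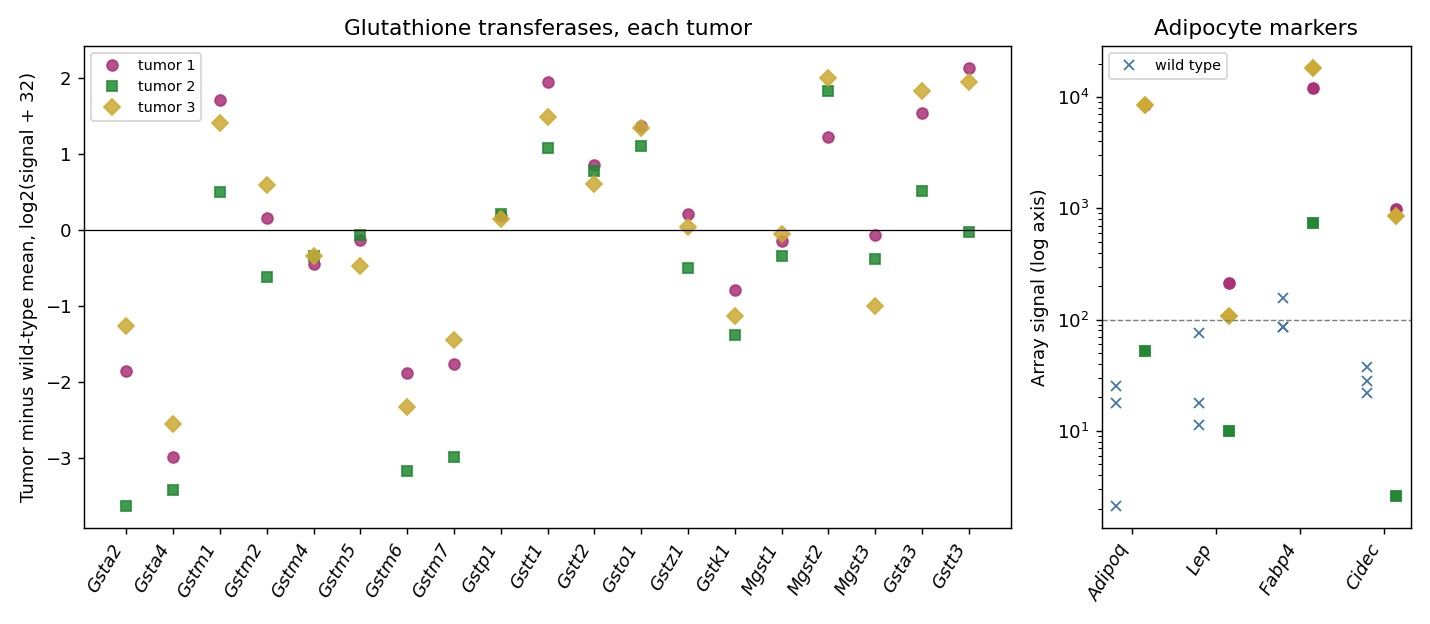
Left, each tumor's difference from the wild-type mean for the 17 tested transferases, with Gsta3 and Gstt3 added at the right (y axis, log2(signal + 32); 1 point for each tumor). Right, signals of 4 adipocyte markers on a log axis, with the tumor 1 point for Adipoq behind that of tumor 3: tumor 2 (green) is at 811 in sum, beside 21824 and 27689, and is lowest in 11 of the 17 transferases.

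Glutathione peroxidases reduce hydrogen peroxide and lipid peroxides at the expense of glutathione. Of 5 tested, 1 was higher and 2 were lower. Gpx1, the cytosolic selenoenzyme, read 4410, 4840 and 5215 in wild type and 7826, 8240 and 7816 in tumors. The tumors were nearly equal and all above wild type (log2 difference 0.72, SE 0.14, adjusted p = 0.01), with an adjusted p of 0.0536 without wild-type sample 1 and a difference of -0.34 under scaling to the bacterial controls. Gpx7, a peroxidase of the endoplasmic reticulum that passes oxidation to protein disulfide isomerase, read 10880, 8837 and 11162 against 5055, 3983 and 4367. Every tumor was lower than every wild-type sample, by 2.3-fold on average (log2 difference -1.20, SE 0.17, adjusted p = 0.00347). Gpx4, which reduces lipid peroxides within membranes, read 9683, 8134 and 9383 against 6280, 6945 and 6358. The groups did not overlap, but the difference was small (-0.47, SE 0.14, adjusted p = 0.0474). The call for Gpx4 was lost without any 1 sample: the adjusted p was 0.17, 0.0533 and 0.136 without wild-type samples 1, 2 and 3, and 0.106, 0.0823 and 0.08 without tumors 1, 2 and 3. Gpx8, also of the endoplasmic reticulum, did not pass at -0.37 (adjusted p = 0.133). Gpx3, the secreted enzyme, varied widely within each group, from 3098 to 7299 in wild type and from 2736 to 9382 in tumors, with a difference of 0.23 (adjusted p = 0.763). Gpx2, Gpx5 and Gpx6 were below 100 on all 6 arrays.

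Peroxiredoxins reduce peroxides through a cysteine that sulfiredoxin can restore after overoxidation. Of 3 tested, 1 was lower. Prdx4, the peroxiredoxin of the endoplasmic reticulum, read 7864, 8195 and 7416 in wild type and 5469, 5632 and 4752 in tumors. Each tumor was lower than each wild-type sample (log2 difference -0.57, SE 0.14, adjusted p = 0.025), with an adjusted p of 0.0933, 0.067 and 0.0621 without wild-type samples 1, 2 and 3 and 0.0501 without tumor 2. Prdx2, cytosolic and abundant in red blood cells, read 10574, 9743 and 12339 against 11894, 11462 and 13042 with its brighter probe set, and the groups overlapped (0.16, SE 0.15, adjusted p = 0.464). A dimmer probe set for Prdx2 read 522, 369 and 649 against 52.1, 80.5 and 119, a difference of -2.24 (SE 0.28, adjusted p = 0.00278 over all probe sets), so its probe sets disagree. Prdx3, the mitochondrial member, did not pass at -0.03 (adjusted p = 0.889). Prdx1 is represented by 5 probe sets that also name Gm21399, so it is not among the members, and their differences ran from -0.29 to 0.42 with none passing. Srxn1, sulfiredoxin, read 121, 138 and 163 against 230, 237 and 194. All signals were low but the groups were apart (log2 difference 0.55, SE 0.16, adjusted p = 0.0405). Srxn1 kept its call without tumor 3 and lost it otherwise: the adjusted p was 0.151, 0.0923 and 0.0572 without wild-type samples 1, 2 and 3, and 0.0934 and 0.112 without tumors 1 and 2. Under scaling to the bacterial controls it turned to -0.34.

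Cat, catalase, the peroxisomal enzyme that breaks down hydrogen peroxide, read 1926, 1506 and 1556 in wild type and 2667, 2557 and 3612 in tumors. Every tumor was above every wild-type sample (log2 difference 0.80, SE 0.19, adjusted p = 0.0207). The adjusted p was 0.0634 and 0.0709 without wild-type samples 2 and 3, and the difference was -0.25 under scaling to the bacterial controls. A second probe set for Cat read 1616, 1996 and 1580 against 3068, 2010 and 2757, with tumor 2 close to the highest wild-type sample. It had the same direction but did not pass (0.57, adjusted p = 0.0886 over all probe sets). Of the 3 superoxide dismutases, which turn superoxide into hydrogen peroxide, none passed with the probe set that stands for the gene. Sod2, the mitochondrial enzyme, read 2758, 2372 and 2715 against 2285, 2363 and 2925, and the groups overlapped (-0.06, SE 0.16, adjusted p = 0.82). Its other tested probe sets gave -0.01 (adjusted p = 0.972) and, from 364, 373 and 421 against 620, 558 and 618, a rise of 0.60 (adjusted p = 0.0295, both over all probe sets). Sod1, the copper-zinc enzyme of the cytosol, was at -0.35 (adjusted p = 0.307). A further probe set for Sod1, singled out after its values were seen, read 476, 209 and 392 against 155, 95.8 and 121 (-1.28, adjusted p = 0.0236 over all probe sets), while the other tested probe sets gave -0.48 and -0.02 (adjusted p = 0.477 and 0.965). Sod3, the secreted enzyme, read 251, 208 and 218 in wild type and 1172, 142 and 293 in tumors. Only tumor 1 was far above wild type and tumor 2 was below it, so the difference of 0.67 had an SE of 0.63 (adjusted p = 0.464).

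Thioredoxin reductases keep thioredoxin reduced with NADPH, and of the 3 tested 1 was higher. Txnrd3, the form of testis that also reduces glutathione, read 409, 445 and 386 in wild type and 605, 602 and 676 in tumors. The groups were clearly apart (log2 difference 0.57, SE 0.14, adjusted p = 0.0232). Its adjusted p was 0.0898 and 0.084 without wild-type samples 1 and 3 and 0.0546 without tumor 2, and its difference was -0.44 under scaling to the bacterial controls. Txnrd1, the cytosolic enzyme, read 3047, 2515 and 2624 against 3747, 3660 and 3209. The groups did not overlap, but the difference of 0.37 did not pass (SE 0.15, adjusted p = 0.107), and its dimmer probe sets gave -0.33 and -0.04. Txnrd2, the mitochondrial enzyme, read 578, 497 and 529 against 518, 539 and 535. These are the same within the spread (-0.01, SE 0.13, adjusted p = 0.973), and its other probe sets gave 0.10, -0.14 and 0.05, none passing.

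Of the 4 genes that make and recycle glutathione, none passed the test. Gclc, the catalytic subunit of the rate-limiting ligase, read 2023, 1518 and 1762 in wild type and 812, 1024 and 1698 in tumors. Tumor 3 lay within the wild-type range and tumors 1 and 2 below it (log2 difference -0.63, SE 0.27, adjusted p = 0.133). Without tumor 3 Gclc passed as lower, at -0.92 with an adjusted p of 0.0183. A second probe set for Gclc, over all 6 arrays, gave -0.29 and did not pass (adjusted p = 0.273 over all probe sets). Gclm, the ligase's modifier subunit, read 922, 1028 and 1155 against 916, 611 and 647. Tumor 1 was just under the lowest wild-type sample (-0.51, SE 0.19, adjusted p = 0.0909), and without it Gclm passed at -0.69 (adjusted p = 0.0352). A dimmer probe set for Gclm, over all 6 arrays, gave -0.27 and did not pass (adjusted p = 0.393 over all probe sets). Gss, glutathione synthetase, read 311, 307 and 262 against 375, 367 and 323. The tumors were higher by less than the test could call (0.25, SE 0.14, adjusted p = 0.232). Gsr, glutathione reductase, read 1145, 869 and 918 against 1191, 1163 and 986. Its groups overlapped (0.19, SE 0.17, adjusted p = 0.434), and a dimmer probe set gave -0.09.

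Hmox1, the heme oxygenase that cells induce under oxidative stress, read 347, 274 and 485 in wild type and 159, 291 and 390 in tumors. The groups overlapped and each spread widely (log2 difference -0.40, SE 0.33, adjusted p = 0.396). Nqo1, a quinone reductase used as a readout of Nrf2 activity, read 109, 49 and 73.5 against 112, 157 and 145. Every tumor was above every wild-type sample, by little in tumor 1, and the difference of 0.67 did not pass (SE 0.23, adjusted p = 0.072). After quantile normalization, which gives all arrays the same distribution, it passed at 0.76.

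Promoter sequence was searched for the core of the antioxidant response element bound by Nrf2 (TGACNNNGC) and for the site of AP-1 factors (TGAGTCA), on both strands of the 250 bases before the 5′-most RefSeq start. Of the 48 genes 42 had such a window, and Gsr, Sod3, Gclc, Hmox1, Gsta4 and Gstt2 had none. The antioxidant response element core was present in 5 of 42 members (11.9%; Gclm, Gsta3, Gstm5, Mgst1 and Sod1), beside 10.1% of the 27026 windows of all genes. Of these 5 genes, Gsta3 was not tested and the others were tested but not called. The AP-1 site was present in 4 of 42 (9.52%; Gstm5, Gstp1, Mgst2 and Srxn1), beside 4.43% of all windows, and Mgst2 and Srxn1 are among the 9 genes that were higher. No match of either motif, as written here, overlapped a match of the other in a member. The match in Gstp1 and the Srxn1 match 45 bases before the start are followed by gc. These stretches differ from TGACNNNGC at a single base. A match is a stretch of letters and not a measured binding site.

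The windows of those that were called and held a match, Mgst2 and Srxn1, and of Gclm, a textbook target of Nrf2 that was not called, are shown with the matches in capitals. They are RefSeq sequences on the plus strand of GRCm38.p6, at chr3:51660929-51661178 for Mgst2, chr2:152105274-152105523 for Srxn1 and chr3:122245307-122245556 for Gclm. The match in Mgst2 begins 52 bases before the start, those in Srxn1 begin 102 and 45 bases before it, and that in Gclm begins 134 bases before it. The matches in Mgst2 and Gclm are to the motif's reverse complement.
Mgst2: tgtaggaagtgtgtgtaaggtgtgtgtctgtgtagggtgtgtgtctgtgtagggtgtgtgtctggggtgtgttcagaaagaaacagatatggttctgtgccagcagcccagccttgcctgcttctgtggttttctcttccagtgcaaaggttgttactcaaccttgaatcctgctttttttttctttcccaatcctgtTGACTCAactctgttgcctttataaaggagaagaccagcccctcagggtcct
Srxn1: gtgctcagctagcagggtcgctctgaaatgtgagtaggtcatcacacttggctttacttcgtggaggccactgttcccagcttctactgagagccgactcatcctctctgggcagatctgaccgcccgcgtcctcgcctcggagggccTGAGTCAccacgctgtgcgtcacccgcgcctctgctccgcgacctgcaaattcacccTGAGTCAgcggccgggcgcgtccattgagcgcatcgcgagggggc
Gclm: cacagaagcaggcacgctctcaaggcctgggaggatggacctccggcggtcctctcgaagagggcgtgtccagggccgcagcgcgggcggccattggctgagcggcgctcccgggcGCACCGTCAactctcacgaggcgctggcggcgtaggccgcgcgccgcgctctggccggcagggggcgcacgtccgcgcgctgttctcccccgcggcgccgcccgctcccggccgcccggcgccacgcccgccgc

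The genes that supply and surround these enzymes were described in 9 lists, some sharing genes. The counts below stand beside 14.5% higher and 12.6% lower over all tested genes, and no list was tested as a set. Of 12 tested regulators of the Nrf2 and Keap1 system, 2 were higher, 1 was lower and 9 did not pass (median 0.03). Mafk, a small Maf protein that pairs with Nrf2, read 459, 576 and 450 in wild type and 1122, 1426 and 988 in tumors (1.19, SE 0.19, adjusted p = 0.00519), and Nfe2l1, a relative of Nrf2 that drives proteasome genes, read 4283, 4981 and 4119 against 2340, 2790 and 1903 (-0.93, SE 0.18, adjusted p = 0.0114). The other higher gene, named after its values were seen, was Nfe2l2, Nrf2 itself, at 2037, 2360 and 2495 against 5212, 3689 and 4691 (0.96, SE 0.18, adjusted p = 0.00924). Among 19 further Nrf2 targets, 4 were higher (Cbr3, Blvrb, Aox1 and Fth1) and 1 lower (Me1), with a median of 0.05. Cbr3, a carbonyl reductase, read 156, 186 and 191 against 619, 455 and 1297, all tumors above wild type (1.84, SE 0.35, adjusted p = 0.01).

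Of 17 tested genes of glutathione supply and turnover, 1 was higher and 5 were lower (median -0.27). Cbs, which starts the path from homocysteine to cysteine, read 1398, 1610 and 1087 in wild type and 243, 324 and 156 in tumors. It was the lowest of the 5 (-2.39, SE 0.26, adjusted p = 0.00154), which also included Ggt7, Slc3a2, Ggct and Chac2. Ggt7 was below 100 in every tumor and passed the filter through wild type alone. Anpep, a membrane peptidase that splits cysteinylglycine, was higher, at 92.6, 142 and 101 against 341, 348 and 156 (1.07, SE 0.30, adjusted p = 0.0369). Slc7a11, the cystine transporter, reached 100 in 2 of the 3 wild-type samples (107, 48.6 and 133) and in no tumor (66, 1.66 and 8.88), and was not tested. Of 14 genes of NADPH supply, 2 were higher and 2 lower (median -0.22). Nnt, the mitochondrial transhydrogenase, read 1581, 2378 and 1828 against 5048, 3309 and 3406 (1.00, SE 0.23, adjusted p = 0.019). All tumors were above wild type. Me1, malic enzyme, read 6937, 6985 and 8748 against 3604, 1955 and 4762, lower in every tumor (-1.21, SE 0.32, adjusted p = 0.0299). The other called genes of this list were Idh2, higher, and Mthfd2, lower.

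Of 20 genes of thioredoxins, glutaredoxins and methionine sulfoxide reductases, 4 were higher and 1 was lower (median 0.20). Msrb3, which repairs oxidised methionine, read 230, 199 and 175 in wild type and 1066, 945 and 410 in tumors (1.75, SE 0.34, adjusted p = 0.0111), beside Nxn, Txndc17 and Msrb2. Glrx3, a glutaredoxin of iron-sulfur handling, was at 194, 113 and 156 against 44.1, 75.7 and 82.2, below 100 in every tumor and at least 1.51-fold lower (adjusted p = 0.0276), and it passed the filter through wild type alone. A list of 16 genes joined those of selenoprotein synthesis with other selenoproteins and a receptor for selenium uptake. Gpx1, Gpx4 and the thioredoxin reductases depend on the synthesis genes. Of the 16, 2 were higher, 3 were lower and the median was -0.20. Selenop, the plasma selenium carrier, read 5767, 8924 and 7329 against 14660, 15005 and 16123, and its receptor Lrp8 read 703, 516 and 643 against 6.83, 75.3 and 79.8. The carrier rose (1.07, SE 0.19, adjusted p = 0.00751). The receptor was below 100 in all tumors, at least 6.15-fold lower (adjusted p = 0.00284), and passed the filter through wild type alone. Selenow, like Selenop a selenoprotein and not a synthesis gene, was also higher, and Scly and Eefsec were lower. The brightest probe set for Scly read 134, 216 and 62.9 against 73.2, 85.7 and 88.3, so it did not pass the filter. The call for Scly (-1.02, adjusted p = 0.047) came from a dimmer probe set.

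Of 13 heme and iron genes, 5 were higher (Slc40a1, Cp, Steap3, Blvrb and Fth1) and 1 lower (Hmox2), with a median of 0.05. Slc40a1, the iron exporter ferroportin, which macrophages express strongly, read 776, 1321 and 1078 in wild type and 4184, 6519 and 5976 in tumors (2.37, SE 0.25, adjusted p = 0.00137). Hmox2, the constitutive heme oxygenase, read 2222, 2490 and 2258 against 1737, 1714 and 1646 (-0.44, SE 0.13, adjusted p = 0.0453). Of 12 tested sources of reactive oxygen, 6 were higher, 1 was lower and 5 did not pass (median 0.78). Cybb, the catalytic subunit of the phagocyte NADPH oxidase, was below 100 in all wild-type samples (36.4, 52.3 and 77.7) and at 415, 385 and 405 in tumors, at least 4.01-fold higher (adjusted p = 0.000626), and passed the filter through the tumors alone. It is itself typical of macrophages, whose 15 tested markers were all higher in the tumors. Its part in the result was not tested. The other sources called higher were Maob, Nox4, Aox1, Cyba and Maoa, at 2.12, 1.49, 0.94, 0.76 and 0.75. Hao2, a peroxisomal oxidase, read 3564, 2370 and 4225 against 956, 975 and 1686 (-1.48, SE 0.30, adjusted p = 0.0122). Of the 9 genes of copper handling and metallothioneins, none passed, and the smallest p was that of Mt2, a metallothionein, at 1642, 1264 and 1749 against 1679, 2698 and 2161 (0.47, adjusted p = 0.155).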

How the data were processed

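Members and gene lists were chosen with earlier results of these data known. The authors deposited 1 linear intensity for each probe set on each array. MAS5 made those of the wild-type arrays and GCOS those of the tumor arrays, per the submitters' processing notes, with no version given, and this difference can shift signals between the groups. Each deposited array had a trimmed mean of 500, with 2% left out at each end, and was rescaled to it. Probe sets were named by GEO's platform annotation: of 45101, 34945 carried 1 symbol, 932 several and 9160 none, and 64 were controls. Entrez identifiers of 34741 matched RefSeq GRCm38.p6, which changed 0 symbols. Probe sets entered the test if 3 or more of the 6 arrays read 100 or higher, and the brightest passing probe set with 1 symbol stood for a gene.

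Groups were compared on log2(signal + 32) by lmFit and eBayes of limma 3.58.1 under R 4.3.3 (2-sided, Benjamini-Hochberg over 11611 genes). SE is limma's standard error. "At least" marks a fold against a group wholly below 100, with its arrays set to 100. With 3 arrays a group, their number limits the precision, and pooling hides the spread between single wild-type females. The labels do not state separate cultures or animals beyond this, so p-values measure the spread between these samples. Signals on every array are given for each called member, for Cat, Gclc, Gclm, Gss, Gsr, Hmox1, Nqo1 and Srxn1, and where passing probe sets differ in direction (5 of the 18 members with more than 1 tested). From each list the called genes with the largest rise and fall are named, and other names were picked with values in view. Promoter windows came from RefSeq on GRCm38.p6. No protein sequence was used. Other pseudocounts, filters, scalings, probe-set rules, a variance model and a replicate block gave 11 alternatives, with 6 fits without 1 sample and 1 alternative added after seeing the data. Tables were made with Python 3.11.15 and pandas 2.3.3, figures with matplotlib 3.10.9.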

Additional observations from a re-analysis of the deposited data

How the results depend on the processing

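Of the 17 called members, 8 kept their call in all 6 fits without 1 sample: Gsta4, Gstm6, Gstm7, Gstk1, Gpx7, Gsto1, Gstt1 and Mgst2. Over those fits the members higher ran from 4 to 8 and lower from 5 to 8, and all genes higher from 866 to 1704 and lower from 662 to 1409. With no filter 5 members were higher. Tumor 2 alone against wild type, added after seeing the data, gave 3 members higher and 6 lower, and 1175 of all genes higher and 904 lower. Scaling to the bacterial hybridisation controls gave 0 members higher and 26 lower, and 405 of all genes higher and 7613 lower, around a median of -1.0. Since it moved all genes down together, it turned the small positive differences of Cat (-0.25), Gpx1 (-0.34), Gstt2 (-0.27), Srxn1 (-0.34), Txnrd3 (-0.44), Gss (-0.72), Gsr (-0.85), Nqo1 (-0.15), Prdx2 (-0.91) and Txnrd1 (-0.69). Relative to that median these 10 stayed positive, at 0.75, 0.66, 0.74, 0.66, 0.56, 0.29, 0.15, 0.86, 0.10 and 0.32 in the same order. Gpx3, Gstp1, Gstm2 and Sod3 turned as well, to -0.84, -0.88, -1.02 and -0.26. Relative to the median they were at 0.16, 0.12, -0.01 and 0.75, so Gstm2 did not stay positive. The cause of the shift was not tested. The mean of all probe sets moved Gstm7 to -1.20 and turned Prdx2 to -1.04 and Sod2 to 0.18, which follows from probe sets that disagree. It also ended the calls of Gpx4, Prdx4, Srxn1 and Txnrd3, at an adjusted p of 0.063, 0.0929, 0.0553 and 0.0698. Dimmer tested probe sets of these genes had the same direction but did not pass. Their differences were -0.43 for Gpx4, -0.51 and -0.30 for Prdx4, 0.59 for Srxn1, and 0.49 and 0.38 for Txnrd3. Differences near 0 also changed sign: Sod2 ran from -0.17 to 0.01 and Txnrd2 from -0.06 to 0.05 over the fits without 1 sample, and Txnrd2 was 0.01 in tumor 2 alone. The labels number replicates in both groups, but deviations of same-numbered samples correlated at -0.0449, 0.0276 and 0.09 over genes, so they share only a number. With the replicate block, 6 members were higher and 6 lower, and 1464 and 1138 of all genes.

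Signals near 100 lie close to background, which limits Gsta2, Gstm6, Srxn1, Nqo1 and the 9 members that were not tested. With 3 samples a group, a difference that did not pass is not shown to be absent.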
